A study of Mus musculus with 30 samples.

Results

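The scavenger and lipoprotein uptake receptors examined here were 9 genes listed by name, Cd36, Scarb1, Scarb2, Olr1, Msr1, Cd68, Lrp1, Stab1 and Vldlr, out of 54232 genes in the count table. Each gene was found once in the table by its Ensembl identifier. The RNA came from the mouse preadipocyte line 3T3-L1, kept for 5 days in adipogenic medium, with 5 libraries in each of 6 groups. The groups were Control, pNaKtide (0.7 µM, a cell-permeant peptide directed at Src signaling through the Na,K-ATPase), IS (indoxyl sulfate, a uremic toxin, 100 µM), IS + pNaKtide, oxLDL (oxidized low density lipoprotein, 50 µg/mL) and oxLDL + pNaKtide, at the same doses when combined. All 6 groups received the adipogenic medium. The labels give 5 days of treatment, whereas the methods give 2 days at intervals of 24 h. The labels name 3T3 cells as the source but adipose tissue in the extraction text, and the samples were taken as cells of 1 line. No label ties a library to a separate culture, so that p-values measure the spread between these libraries, which may be technical.

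Scavenger receptors bind modified lipoproteins and other polyanionic or lipid ligands and carry them into the cell. Several of them are not shut down as cholesterol accumulates, which is why they are known for foam cell formation in macrophages. In fat cells CD36 is best known as a transporter of long-chain fatty acids, SR-BI (Scarb1) as the receptor for HDL cholesterol, and the VLDL receptor and LRP1 as large endocytic receptors for triglyceride-rich remnants.

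With oxLDL Cd36 and Olr1 rose, and Scarb1 fell, against Control cells, and addition of pNaKtide to oxLDL moved all 3 the other way, while Vldlr and Scarb2 fell, Vldlr to below its Control level. With IS Cd36 rose and Scarb1 fell, calls that were lost in most fits leaving out 1 library, as was that of Scarb2 above. When pNaKtide was added to IS, edgeR called no receptor and no other gene tested, whereas DESeq2 called 14 genes (0.0695%), none of them a receptor. When each library's dependence of counts on GC content and transcript length was taken out, the calls of Cd36 with oxLDL and IS, of Olr1 with oxLDL, of Cd36, Olr1 and Vldlr on adding pNaKtide to oxLDL, and of Vldlr against Control were lost. Those of Scarb1 were not, Vldlr and Scarb2 were called lower with oxLDL, and Scarb2 turned from lower to higher on adding pNaKtide.

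Promoters are shown for Cd36, Olr1 and Vldlr, which had the larger changes of the 4 genes that fell on adding pNaKtide to oxLDL (the other was Scarb2). RefSeq (GRCm38.p6) gave windows from 250 bases before to 50 bases after an annotated start for 7 of the 9 genes. Capitals mark matches, on either strand, to TGAGTCA (AP-1), TGACNNNGC (antioxidant response element), AGGTCA (half-site of nuclear receptors), GGGCGG (GC box), CCAAT or TATAAA.
Cd36, chr5:17835847-17836146, minus strand: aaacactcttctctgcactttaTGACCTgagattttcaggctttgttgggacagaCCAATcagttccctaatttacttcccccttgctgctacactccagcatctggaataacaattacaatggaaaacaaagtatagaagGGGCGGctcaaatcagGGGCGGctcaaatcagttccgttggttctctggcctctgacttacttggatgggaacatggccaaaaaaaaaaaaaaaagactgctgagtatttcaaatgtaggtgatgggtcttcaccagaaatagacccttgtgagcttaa
Olr1, chr6:129507116-129507415, minus strand: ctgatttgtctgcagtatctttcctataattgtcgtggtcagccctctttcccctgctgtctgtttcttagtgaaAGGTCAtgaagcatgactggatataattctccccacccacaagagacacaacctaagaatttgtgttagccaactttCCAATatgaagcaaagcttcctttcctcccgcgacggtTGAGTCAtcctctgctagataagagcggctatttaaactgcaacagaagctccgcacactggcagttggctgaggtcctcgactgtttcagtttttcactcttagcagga
Vldlr, chr19:27216234-27216533, plus strand, the first of 2 windows: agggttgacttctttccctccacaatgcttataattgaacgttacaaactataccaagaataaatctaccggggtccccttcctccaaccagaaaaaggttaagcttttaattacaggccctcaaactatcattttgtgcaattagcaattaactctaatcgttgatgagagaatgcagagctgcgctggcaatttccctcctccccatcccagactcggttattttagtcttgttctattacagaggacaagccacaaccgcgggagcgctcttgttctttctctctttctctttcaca
The Cd36 window lies inside the gene, whose 5' end on the minus strand is at 17888801, so that its start is an internal one. It held 2 GC boxes, at -109 and -93 from that start, a half-site at -228 and CCAAT at -195. Olr1 held an AP-1 match at -60, a half-site at -175 and CCAAT at -98. The Vldlr window shown held none of the 6 motifs, and its other window held a GC box and a CCAAT match. Of 32851 promoter windows, 5.2% held the AP-1 letters, 12.4% the antioxidant response element, 16.3% the half-site, 35.7% the GC box, 37.4% CCAAT and 13.6% TATAAA. The 3 windows shown had a GC content of 43%, 46% and 43%, whereas the other Vldlr window had 68% and that of Scarb2 67.3%, with a median of 52.7% over all windows. Among the other members, Cd68 held 2 AP-1 matches, and Scarb2 and Lrp1 held 1 antioxidant response element each. A match describes these letters only.

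Counts per library ranged from 6945498 to 15159877 (median 11524210). The common biological coefficient of variation was 14%, and the test covered 20139 genes whose counts summed to more than 14. Levels are TMM-normalized CPM (counts scaled to a common library total) for comparisons of 1 gene between groups, and FPKM, which is per length, for comparisons between genes. A gene was called at a BH-adjusted p of 0.1, two-sided. The first principal component of log2 CPM (64.4% of the variance over 12580 genes) set some libraries apart from their groups, for which no cutoff was set. Control replicate 1 scored -25.8, where the other Control libraries scored 6.5 to 29.9 and the oxLDL libraries -41.9 to -14.7. The score of IS replicate 4 was 28.2, against -36.7 to -23.2 for the remaining IS libraries. Each of these 2 libraries thus scored within the range of the other's group, and whether their labels were exchanged was not tested; the labels were kept. Also apart were pNaKtide replicate 3, at -5.4 beside 15.9 to 36.6, and IS + pNaKtide replicate 2, at -2.4 beside -18.5 to -15.3. Replicate 4 of oxLDL + pNaKtide, the library of lowest depth, scored 67.5, where the others scored 14.5 to 33.2. Adipocyte markers were abundant, with 8 of 8 tested and a summed level of 10949.8 to 17986 CPM per library. The 6 preadipocyte or fibroblast markers summed to 2857 to 5866 CPM. Of 10 macrophage markers, Ptprc, Itgam and Tyrobp had 0 counts in all libraries, Adgre1 had 4 counts in all, and the list summed to 1.16 to 4.03 CPM. The 6 endothelial markers summed to at most 0.792 CPM, with 6 to 8 counts in all for Cdh5, Kdr, Tek and Emcn. In bulk RNA, fewer cells of a type and less RNA per cell cannot be told apart.

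Per length, Cd36 was the most abundant of the receptors, with a mean of 246 FPKM over the 30 libraries, ranking 385 among the 20139 genes tested. Scarb1 followed at 38.7 FPKM. Scarb2 (25.9 FPKM), Olr1 (24.7 FPKM) and Lrp1 (22.8 FPKM) came next, and their ranges over Control libraries overlapped, at 24.3 to 27.6, 19.6 to 35.2 and 19.3 to 34.1 FPKM. Vldlr had 13.5 FPKM and Cd68 3.6 FPKM. Stab1 was near the limit of detection at 0.0381 FPKM, and Msr1 was at 0. The order Cd36 above Scarb1 above Vldlr above Cd68 held in every library, whereas that of Scarb2, Olr1 and Lrp1 did not.

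**Figure D1:**
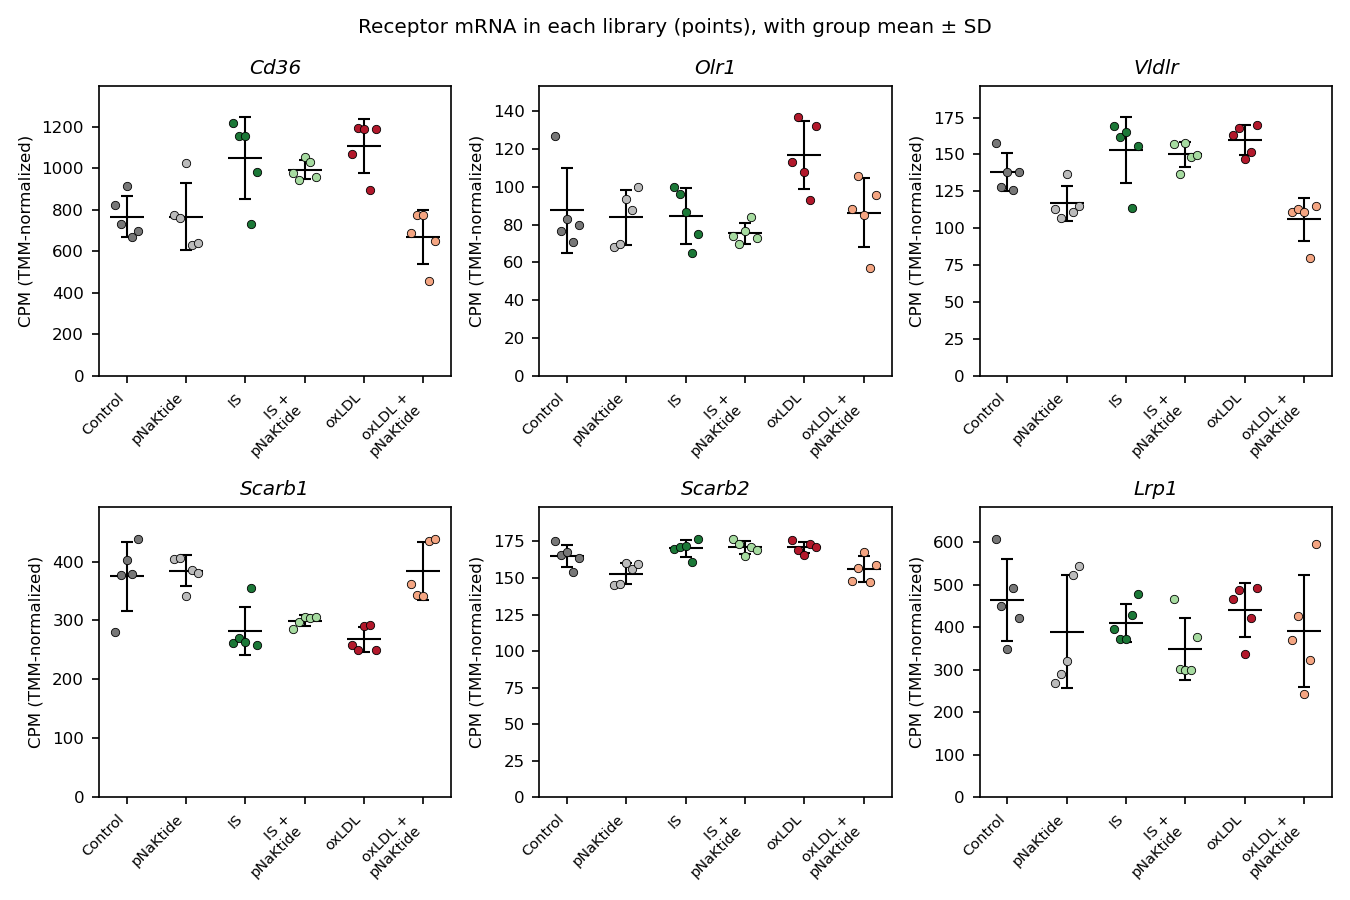
Level of 6 receptors in each library, in TMM-normalized CPM (vertical axes from 0), by group; points are libraries, and the horizontal lines with bars are the mean ± SD of 5 libraries. Cd36 libraries with oxLDL sit at 895 to 1196 CPM, above all oxLDL + pNaKtide libraries (456 to 774 CPM), and Scarb1 shows the opposite order.

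Cd36 (ENSMUSG00000002944, chromosome 5 of GRCm38, 17781690 to 17888801, minus strand) encodes the class B scavenger receptor that binds oxLDL and carries fatty acids into fat cells. In Control replicates 1 to 5 it had 822, 730.2, 917, 671 and 699 CPM. With oxLDL it had 1069, 1196, 1192, 895 and 1192 CPM, and with oxLDL + pNaKtide 689, 773, 774, 456 and 648 CPM. All oxLDL libraries but replicate 4 were above all Control libraries, and no oxLDL + pNaKtide library reached the lowest oxLDL library. The group means were 768 ± 101 CPM in Control, 1109 ± 131 CPM with oxLDL and 668 ± 130.2 CPM with oxLDL + pNaKtide (SD, n = 5 each). With IS it had 1217, 1157, 1159, 733 and 984 CPM, so that replicate 4 alone lay within the Control range. With IS + pNaKtide all 5 libraries, 944 to 1053 CPM, were above the highest Control library. With pNaKtide alone it had 631 to 1027 CPM, spanning the Control range.

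Scarb1 (ENSMUSG00000037936, chromosome 5, 125277087 to 125341094, minus strand) encodes SR-BI, which binds HDL and moves cholesteryl esters across the membrane. Control replicates 1 to 5 had 279.6, 377, 402, 378 and 438 CPM. With oxLDL it had 259, 249, 289.9, 292 and 249 CPM, and with oxLDL + pNaKtide 361, 343, 342, 435 and 439 CPM. Only Control replicate 1 lay among the oxLDL libraries, and each oxLDL + pNaKtide library was above each oxLDL library. Means were 375 ± 58.8 CPM in Control, 268 ± 21.4 CPM with oxLDL and 384 ± 48.9 CPM with oxLDL + pNaKtide. With IS it had 261, 270.2, 264, 355 and 258 CPM, and with IS + pNaKtide 285 to 306 CPM. Here IS replicate 4 was again the library nearest to Control. With pNaKtide alone it had 341 to 406 CPM, inside the Control range.

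Olr1 (ENSMUSG00000030162, chromosome 6, 129485244 to 129507165, minus strand) encodes LOX-1, a lectin-like receptor for oxLDL. Control replicates had 127, 76.8, 83.2, 70.6 and 79.9 CPM, of which replicate 1 stood far above the others. With oxLDL it had 113, 137, 108, 93.3 and 132 CPM, above every Control library other than replicate 1. With oxLDL + pNaKtide it had 88.4, 106, 85.3, 56.8 and 95.8 CPM, which overlapped both groups. Means were 87.5 ± 22.6, 117 ± 18.1 and 86.4 ± 18.4 CPM in that order. The IS libraries had 64.9 to 100 CPM and those with IS + pNaKtide 69.7 to 84.1 CPM, within the Control range or just below it. With pNaKtide alone it had 68 to 100.1 CPM.

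Vldlr (ENSMUSG00000024924, chromosome 19, 27216484 to 27254231, plus strand) encodes the VLDL receptor, which binds apolipoprotein E-rich particles and acts with lipoprotein lipase in fat cells. Control replicates had 158, 128, 138, 126 and 138 CPM, and oxLDL replicates 163, 168, 147, 152 and 169.8 CPM. With oxLDL + pNaKtide it had 111, 113, 111, 79.6 and 115 CPM, below every Control and every oxLDL library. Control and oxLDL libraries overlapped only through Control replicate 1. Means were 138 ± 12.7, 160 ± 10.1 and 106 ± 14.8 CPM. With IS it had 169, 162, 165, 114 and 156 CPM, and with IS + pNaKtide 137 to 158 CPM. With pNaKtide alone it had 107 to 137 CPM, mostly under the Control libraries.

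Scarb2 (ENSMUSG00000029426, chromosome 5, 92441314 to 92506833, minus strand) encodes LIMP-2, the lysosomal relative of CD36. It varied least, with group means from 153 ± 7.35 CPM with pNaKtide to 171 ± 4.63 CPM with IS + pNaKtide and 171 ± 3.85 CPM with oxLDL. Lrp1 (ENSMUSG00000040249, chromosome 10, 127538161 to 127621148, minus strand), the endocytic receptor for remnants and many other ligands, varied within groups. Its means went from 349 ± 73.8 CPM with IS + pNaKtide to 465 ± 96.5 CPM in Control, and single pNaKtide libraries ran from 269 to 545 CPM. For Lrp1, replicates of the pNaKtide group thus differed more than the group means did.

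Cd68 (ENSMUSG00000018774, chromosome 11, 69664213 to 69666153, minus strand), a lysosomal glycoprotein best known from macrophages, had 28 to 86 counts per library and group means of 4.14 to 4.88 CPM. Its libraries ran from 3.12 to 7.23 CPM, and the groups overlapped. Stab1 (ENSMUSG00000042286, chromosome 14, 31139013 to 31168641, minus strand), the endothelial and macrophage receptor stabilin-1, had 148 counts in all, from 0 to 14 per library, with a count in 29 of 30. It shares 112 exonic bases with Nt5dc2 on the opposite strand (32823 counts), and the strand setting of the counting is not given, so that its value is uncertain. Msr1 (ENSMUSG00000025044, chromosome 8, 39581685 to 39642673, minus strand), the class A macrophage receptor, had 0 counts in 30 libraries, which allows up to 3 counts in 344223499, or 0.00872 CPM, for counting error only. Msr1 was not tested.

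In oxLDL against Control cells, 3 of the 8 receptors tested were called, 2 higher and 1 lower, where 36.0% of all genes tested were called. Cd36 rose by 0.53 on the log2 scale (SE 0.14, 1.44-fold, adjusted p = 0.0109, quasi-likelihood test of edgeR, BH-adjusted). Olr1 rose by 0.41 (SE 0.15, 1.33-fold, adjusted p = 0.0421, edgeR). Scarb1 fell by 0.48 (SE 0.1, 0.715-fold, adjusted p = 0.00744, edgeR). Vldlr, at 0.21, missed the threshold (adjusted p = 0.107, edgeR). Scarb2, Lrp1, Cd68 and Stab1 had values of 0.05, -0.07, -0.15 and 0.40 with intervals across 0. No receptor had groups that did not overlap, which 8.35% of all genes had. Without the 2 libraries standing apart from Control and IS, Cd36 was 0.56, Olr1 0.59, Scarb1 -0.57 and Vldlr 0.27 (adjusted p = 0.0118, edgeR), so that 4 receptors were called, beside 47.6% of all genes in that fit. Both libraries were singled out in the same data, by a principal component that Cd36, Scarb1 and Vldlr followed, so that this fit is no separate evidence. The Olr1 call was lost without Control replicate 2 (adjusted p = 0.111), Control replicate 4 (0.129), oxLDL replicate 2 (0.125) or oxLDL replicate 5 (0.109) in the edgeR fit, with log2 values of 0.35 to 0.37.

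When pNaKtide was added to oxLDL, 5 of 8 receptors were called, 1 higher and 4 lower, beside 48.3% of all genes tested. Cd36 fell by 0.73 (SE 0.14, adjusted p = 0.000159, edgeR) and Vldlr by 0.59 (SE 0.1, adjusted p = 4.62e-05, edgeR). Olr1 fell by 0.43 (SE 0.15, adjusted p = 0.0233, edgeR) and Scarb2 by 0.13 (SE 0.063, adjusted p = 0.0885, edgeR). Scarb1 rose by 0.52 (SE 0.1, 1.43-fold, adjusted p = 0.000227, edgeR). The groups did not overlap for Cd36, Vldlr and Scarb1, 3 of 8, against 28.4% of all genes. Cd68, Lrp1 and Stab1 had values of 0.23, -0.17 and -0.83, with adjusted p of 0.333, 0.537 and 0.288 in edgeR. Without oxLDL + pNaKtide replicate 4, Olr1 was -0.31 (adjusted p = 0.113) and Scarb2 -0.10 (adjusted p = 0.246) and both calls were lost, while Cd36 (-0.61), Vldlr (-0.50) and Scarb1 (0.48) were called (edgeR). The Scarb2 call was lost in 8 of 10 such fits, also without oxLDL replicate 1, 2, 4 or 5 or oxLDL + pNaKtide replicate 1, 2 or 5 (adjusted p = 0.115 to 0.244, edgeR). This comparison shares the oxLDL libraries with the one against Control, so that a high oxLDL library moves both, in opposite directions.

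The comparison of oxLDL + pNaKtide with Control does not use the oxLDL libraries. Of 8 receptors 1 was called, beside 5.20% of all genes. Vldlr was lower by 0.38 (SE 0.1, adjusted p = 0.0344, edgeR), with groups that did not overlap, as in 4.03% of all genes. The call was lost without Control replicate 1 (-0.32) or oxLDL + pNaKtide replicate 4 (-0.28, adjusted p = 0.17, edgeR). After removal of the GC content and length trend Vldlr was -0.19 (adjusted p = 0.145) and not called, and Lrp1 was called at -0.23 (adjusted p = 0.0905, edgeR), beside 9.58% of all genes. Scarb1 differed by 0.03 (95% interval -0.17 to 0.24), Olr1 by -0.02 (-0.32 to 0.29) and Cd36 by -0.20 (-0.48 to 0.08).

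In IS against Control cells, 2 of 8 receptors were called, beside 7.94% of all genes, a share that ran from 0.0745% to 34.5% when 1 library was left out. Cd36 rose by 0.45 (SE 0.14, adjusted p = 0.0817, edgeR) and Scarb1 fell by 0.41 (SE 0.1, adjusted p = 0.0538, edgeR). Olr1, at -0.05 (95% interval -0.35 to 0.25), and Vldlr, at 0.15 (-0.05 to 0.35), were not called. Both calls depended on which library was left out. Cd36 lost its call without Control replicate 2, 4 or 5 or IS replicate 1, 2, 3 or 5 (log2 0.39 to 0.47, adjusted p = 0.142 to 0.233, edgeR). Scarb1 lost it without Control replicate 2, 3, 4 or 5 or the same 4 IS libraries (log2 -0.41 to -0.35, highest adjusted p = 0.187, edgeR). With Control replicate 1 and IS replicate 4 both left out, Cd36 was 0.58 (adjusted p = 0.0012), Scarb1 -0.60 (adjusted p = 2.18e-05) and Vldlr 0.29 (adjusted p = 0.00987), all called by edgeR, beside 45.4% of all genes. These 2 libraries were singled out in the same data, by a principal component that the 3 receptors followed. Leaving them out thus favors larger differences, and these adjusted p-values are no separate evidence. Of the marker genes, 3 of 8 adipocyte markers (Adipoq -0.43, Cebpa -0.46, Cidec -0.48) and 2 of 6 preadipocyte or fibroblast markers (Col1a1 -0.79, Col3a1 -0.41) were also lower with IS, and these counts were the same with RLE scaling, library size only and the trend removed. Their part in the changes of Cd36 and Scarb1 was not tested.

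With IS + pNaKtide against IS, edgeR called 0 of 8 receptors and 0% of all genes. No receptor had an unadjusted p under 0.05, and DESeq2 called 0. Cd36 differed by -0.08 (95% interval -0.36 to 0.20), Scarb1 by 0.09 (-0.11 to 0.29) and Vldlr by -0.03 (-0.22 to 0.17). Without IS replicate 4, Cd36 was -0.19, Scarb1 0.19, Vldlr -0.12 and Olr1 -0.25, and edgeR called 0 receptors and 0% of all genes. Against Control, edgeR called 0 receptors with IS + pNaKtide beside 0.358% of all genes, with 3 at an unadjusted p under 0.05 (Cd36, Scarb1 and Lrp1) and 2 called by DESeq2. Cd36 was 0.37 (adjusted p = 0.182, edgeR) although its groups did not overlap, as in 3.79% of all genes, and Scarb1 was -0.32 (adjusted p = 0.153, edgeR). Without Control replicate 1 both were called, Cd36 at 0.40 (adjusted p = 0.0632) and Scarb1 at -0.41 (adjusted p = 0.0108, edgeR), beside 26.7% of all genes.

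With pNaKtide alone, edgeR called 0 receptors beside 0.00497% of all genes, 1 had an unadjusted p under 0.05 (Vldlr, -0.24, adjusted p = 0.752, edgeR), and DESeq2 called 0. Cd36 differed from Control by 0.00 (95% interval -0.28 to 0.27) and Scarb1 by 0.03 (-0.17 to 0.24). Between the 2 stimuli, IS against oxLDL, edgeR called 0 receptors beside 0.0149% of all genes. Olr1 was lower with IS by 0.46 at an unadjusted p of 0.00472 (adjusted p = 0.774, edgeR), the 1 receptor under 0.05, and DESeq2 called 0.

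**Figure D2:**
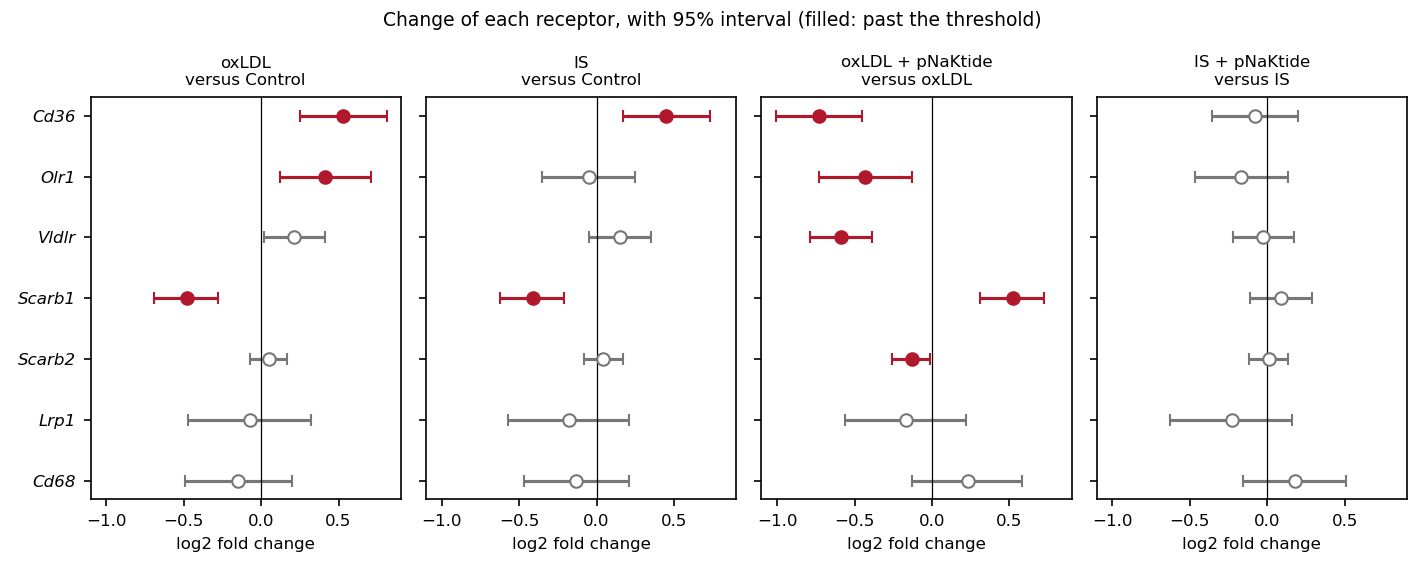
Log2 fold change (horizontal axis) of 7 receptors in 4 comparisons, with 95% intervals; filled red points passed an adjusted p of 0.1 in edgeR and open grey points did not. Cd36 is at 0.53 and Scarb1 at -0.48 with oxLDL, both change sign when pNaKtide is added to oxLDL, and every interval includes 0 when it is added to IS.

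Whether pNaKtide acted differently with oxLDL was tested as a difference of changes. Set against the pNaKtide change without a stimulus, 3 of 8 receptors differed, beside 24.6% of all genes. The difference was -0.73 for Cd36 (SE 0.2, adjusted p = 0.0263), 0.49 for Scarb1 (SE 0.15, adjusted p = 0.0336) and -0.35 for Vldlr (SE 0.14, adjusted p = 0.0862) in edgeR. The Vldlr call was lost in 10 of 20 fits that each left out 1 library, with log2 values of -0.36 to -0.26 and the highest adjusted p, 0.216 in edgeR, without pNaKtide replicate 3. The other libraries whose absence ended it were Control replicates 2, 3, 4 and 5, oxLDL replicates 1, 2 and 5, oxLDL + pNaKtide replicate 4 and pNaKtide replicate 5. Without pNaKtide replicate 3, 10.5% of all genes were called. Without Control replicate 1, Olr1 was called as well, at -0.54 (adjusted p = 0.0351, edgeR). After removal of the GC content and length trend, Cd36 was -0.01 (adjusted p = 0.974), Vldlr 0.19 (adjusted p = 0.28), Scarb1 0.56 (adjusted p = 0.0275) and Scarb2 0.26 (adjusted p = 0.0603, edgeR), the last 2 called beside 12.1% of all genes. Set against the pNaKtide change with IS, the same 3 receptors differed, beside 29.3% of all genes. The difference was -0.65 for Cd36 (adjusted p = 0.024), 0.43 for Scarb1 (adjusted p = 0.0389) and -0.56 for Vldlr (adjusted p = 0.0115, edgeR). Only without IS replicate 4 was a call lost, that of Scarb1 (0.33, adjusted p = 0.102, edgeR). With the trend removed, Cd36 was 0.08 (adjusted p = 0.69), Vldlr 0.00 (adjusted p = 0.993) and Scarb1 0.55 (adjusted p = 0.0155, edgeR). These 2 tests share the oxLDL and oxLDL + pNaKtide libraries.

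The ratio of Cd36 to Scarb1 counts within 1 library does not depend on its scaling, but it carries the library's GC content and length trend, which predicted a log2 change with oxLDL of 0.61 for Cd36 and 0.03 for Scarb1. The ratio in Control replicates 1 to 5 was 2.94, 1.93, 2.28, 1.77 and 1.60, and with oxLDL 4.12, 4.80, 4.11, 3.07 and 4.78. With oxLDL + pNaKtide it was 1.91, 2.25, 2.27, 1.05 and 1.48. Every oxLDL library thus held more Cd36 reads per Scarb1 read than any Control or oxLDL + pNaKtide library. The ratio was 4.67, 4.28, 4.39, 2.06 and 3.82 with IS and 3.14 to 3.45 with IS + pNaKtide, so that replicate 4 of IS alone came down to the Control level. The ratio of Vldlr to Scarb1 ran from 0.506 to 0.681 with oxLDL, from 0.183 to 0.328 with oxLDL + pNaKtide, and from 0.316 to 0.566 in Control, where replicate 1 was the highest.

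**Figure D3:**
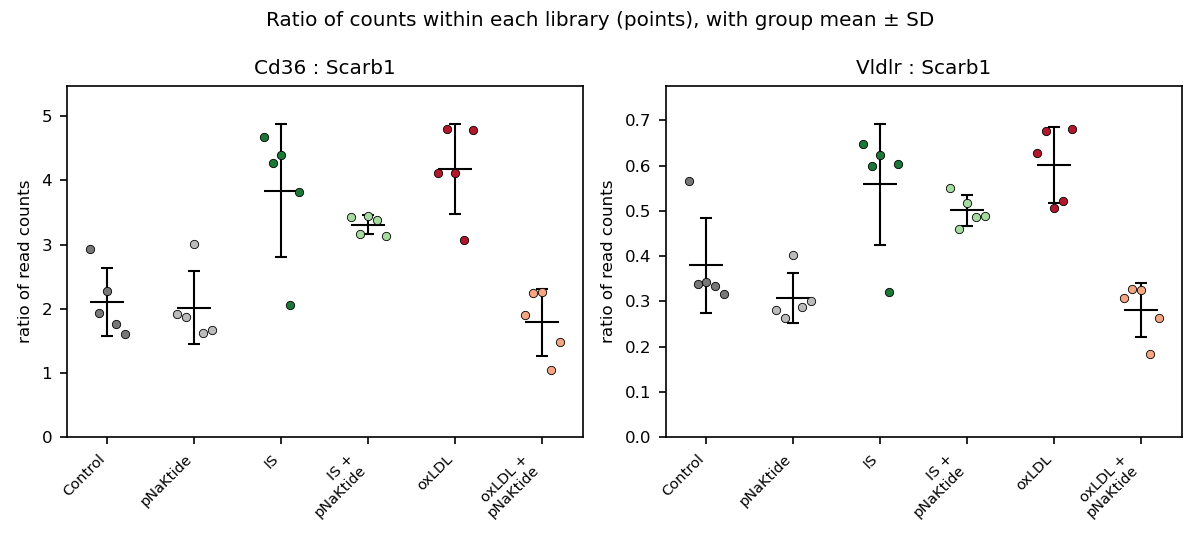
Ratio of Cd36 to Scarb1 read counts (left) and of Vldlr to Scarb1 read counts (right) within each library, by group; points are libraries and bars the mean ± SD of 5. For Cd36 to Scarb1, oxLDL libraries sit at 3.07 to 4.8 and Control libraries at 1.6 to 2.94.

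Each library's counts followed the GC content of transcripts to a different degree, and this degree moved with the groups. Over the tenth of genes with the lowest GC content, the mean log2 deviation was 0.20 to 0.59 in oxLDL libraries and -0.92 to -0.11 with oxLDL + pNaKtide. It was -0.42 to -0.03 in Control libraries other than replicate 1, which stood at 0.24, and 0.30 to 0.47 in IS libraries other than replicate 4, at -0.36. The transcripts of Cd36, Olr1 and Vldlr have low GC contents of 38.4%, 41.2% and 43.8%, Scarb2 46.3%, Scarb1 48.5%, Cd68 52.9% and Lrp1 57.9%. A smooth trend over GC content and length, fitted per library, predicted log2 changes with oxLDL of 0.61 for Cd36, 0.45 for Olr1, 0.44 for Vldlr and 0.03 for Scarb1. The counts gave 0.53, 0.41, 0.21 and -0.48.

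With the trend taken out of the fit, Cd36 was -0.08 (adjusted p = 0.516), Olr1 -0.03 (adjusted p = 0.893) and Vldlr -0.23 (adjusted p = 0.0409) with oxLDL in edgeR. Scarb1 was then -0.52 (adjusted p = 0.00639) and Scarb2 -0.16 (adjusted p = 0.0722, edgeR), so that Vldlr, Scarb1 and Scarb2 were called, beside 20.6% of all genes. On adding pNaKtide to oxLDL, Cd36 was 0.06 (adjusted p = 0.585), Olr1 0.19 (adjusted p = 0.141) and Vldlr 0.04 (adjusted p = 0.738, edgeR). Scarb1 was 0.63 (adjusted p = 3.34e-05), Scarb2 0.22 (adjusted p = 0.00421) and Lrp1 -0.21 (adjusted p = 0.047, edgeR). With IS, Cd36 was 0.00 (adjusted p = 0.998), Olr1 -0.37 (adjusted p = 0.0444) and Scarb1 -0.44 (adjusted p = 0.0276, edgeR). The direction of Scarb1 thus did not depend on the trend, and that of Cd36, Olr1 and Vldlr did. Whether the trend came from library preparation or from the cells was not tested.

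**Figure D4:**
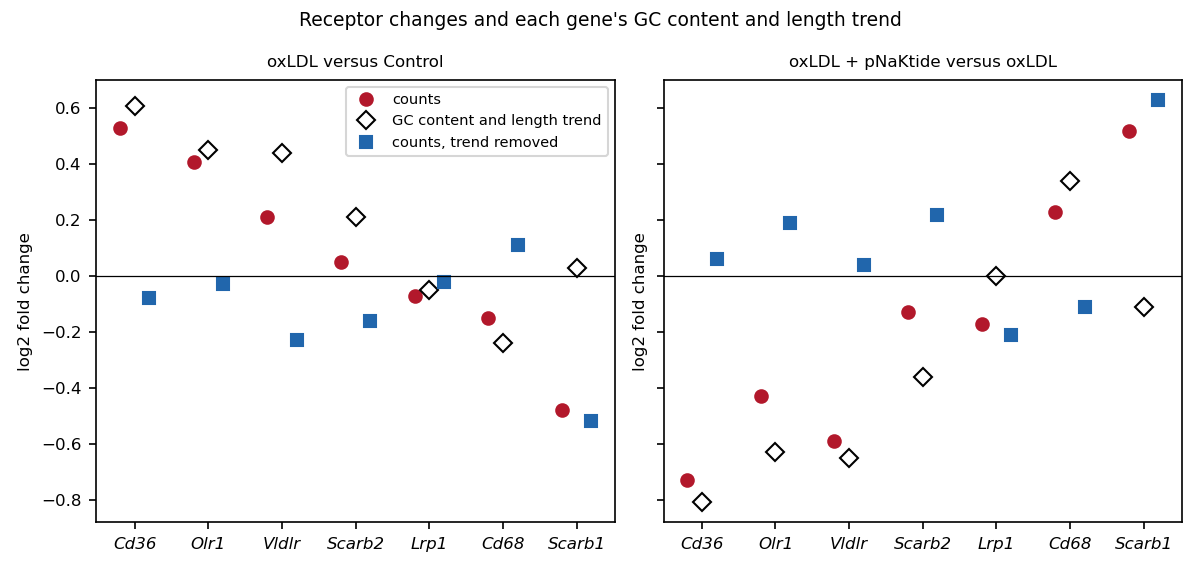
Log2 fold change (vertical axis) of 7 receptors with oxLDL against Control (left) and oxLDL + pNaKtide against oxLDL (right); red circles are the counts, open diamonds the value predicted from GC content and length, and blue squares the counts with that trend removed. Cd36 falls from 0.53 to -0.08 on the left, whereas Scarb1 stays near -0.5.

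Across the 30 libraries, Cd36 and Vldlr varied together (Pearson r = 0.89 of log2 CPM) and opposite to Scarb1 (r = -0.84 and -0.83). These points share libraries, groups and the GC content trend, and Cd36, Vldlr and Scarb1 followed the first principal component with r = -0.91, -0.94 and 0.93. Among 13621 genes, those most like Cd36 were Otud6b (r = 0.977), Cops2 (0.972) and Dld (0.972). Those most like Scarb1 were Akt2 (0.978), Pitpnm1 (0.975) and Tmem109 (0.969), and those most like Vldlr were Mex3c (0.968), Eaf1 (0.966) and Foxn2 (0.966). Olr1 was nearest to Itga6 (0.865), Armcx4 (0.863) and Prlr (0.859), and Scarb2 to B4galt1 (0.91), Kdelc2 (0.895) and Lpar1 (0.892). Lrp1 was nearest to Zmynd8 (0.932), Disp2 (0.93) and Tnrc18 (0.929). Cd68 had the lowest values, with Hmox1 (0.758), Card19 (0.755) and Sec61g (0.747).

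List counts are to be read against the 36.0% of all genes called with oxLDL, 7.94% with IS and 48.3% on adding pNaKtide to oxLDL. Among other scavenger receptors, 16 listed and 14 tested, 1 rose and 2 fell with oxLDL (2 and 2 with scaling by library size), with a median log2 change of 0.17 against 0.04 over all genes. Colec12, a scavenger receptor with a C-type lectin domain, rose by 0.34 (adjusted p = 0.0371), and Cd14, the coreceptor for lipopolysaccharide, and Ssc5d fell by 0.47 and 0.52 (adjusted p = 0.024 and 0.0343, edgeR). None of the 3 was called with the trend removed, when Colec12 was -0.15. On adding pNaKtide to oxLDL 1 rose and 4 fell (0 and 4 with scaling by library size), with a median of -0.23 against -0.09. Colec12 fell by 0.69 (adjusted p = 6.77e-05), the ferritin receptor Scara5 by 0.38 (adjusted p = 0.000305) and the engulfment receptor Megf10 by 1.00 (adjusted p = 0.0141), and Ssc5d rose by 0.51 (adjusted p = 0.0257, edgeR). With the trend removed Scara5 was -0.42 (adjusted p = 2e-05) and Colec12 0.00 (edgeR). With IS none of the 14 was called.

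The wider lipoprotein receptor family and its regulators, 19 listed and 13 tested, had 2 higher and 5 lower with oxLDL (4 and 4 with scaling by library size), with a median of 0.00 against 0.04. Snx17, a sorting nexin that returns receptors from endosomes to the surface, fell by 0.50 (adjusted p = 0.00702) and Lrpap1, the chaperone of the family, by 0.44 (adjusted p = 0.00783, edgeR). Mylip, a ubiquitin ligase that sends the VLDL receptor to degradation, rose by 0.31 (adjusted p = 0.00818, edgeR), as did the Wnt coreceptor Lrp6 by 0.45 (adjusted p = 0.0962, edgeR). With the trend removed Snx17 was -0.28, Lrpap1 -0.28 and Mylip 0.33 (adjusted p = 0.0099, 0.0112 and 0.0063, edgeR), and Lrp6 was 0.15 and not called.

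With IS the family had 2 higher and 3 lower (2 and 2 with scaling by library size), beside 7.94% of all genes, with Mylip at 0.32 (adjusted p = 0.0467), Lrp11 at 0.26 (adjusted p = 0.0987) and Snx17 at -0.37 (adjusted p = 0.0641, edgeR). On adding pNaKtide to oxLDL 5 rose and 5 fell. Snx17 rose by 0.57 (adjusted p = 9.15e-05) and Lrp10 by 0.55 (adjusted p = 0.000346, edgeR). Mylip fell by 0.38 (adjusted p = 0.000234), Lrp12 by 0.52 (adjusted p = 0.000385) and Lrp6 by 0.93 (adjusted p = 0.00063, edgeR), and all 5 were called with the trend removed. With scaling by library size alone, 2 rose and 5 fell.

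Of the ligands, partners and handling genes, 14 listed and 13 tested, 1 rose and 2 fell with oxLDL (3 and 2 with scaling by library size), with a median of 0.01 against 0.04. Lamp2, a lysosomal membrane protein, rose by 0.57 (adjusted p = 0.0107, edgeR) and was -0.01 with the trend removed. Npc2, which carries cholesterol out of lysosomes, fell by 0.48 (adjusted p = 0.00998, edgeR). It was also called with the trend removed, at -0.39, when the list had 0 higher and 6 lower. On adding pNaKtide to oxLDL 4 rose and 4 fell (3 and 6 with scaling by library size). Npc2 rose by 0.58 (adjusted p = 0.000517) and Apoe by 0.51 (adjusted p = 0.00156, edgeR). Lamp2 fell by 0.88 (adjusted p = 5.25e-05) and the CD36 ligands Thbs1 and Thbs2 by 0.68 and 0.72 (adjusted p = 0.000921 and 0.00142, edgeR). With the trend removed Apoe was 0.04 and Lamp2 -0.09, neither called, and the list had 6 higher and 2 lower. With IS none of the 13 was called, 1 was higher with scaling by library size, beside 12.6% of all genes, and 4 were lower with the trend removed, beside 5.51%.

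Marker genes were also called in these comparisons, in which 36.0% of all genes were called with oxLDL and 48.3% on adding pNaKtide. Of 8 adipocyte markers 3 fell with oxLDL, Lipe by 0.33, Cebpa by 0.30 and Cidec by 0.34 (adjusted p = 0.0301, 0.0451 and 0.0493, edgeR), but with scaling by library size 2 rose and 1 fell, and with the trend removed 1 fell. On adding pNaKtide to oxLDL 4 adipocyte markers rose (2 rose and 1 fell with scaling by library size), with Lipe at 0.58 and Adipoq at 0.44 (adjusted p = 0.000152 and 0.00461, edgeR). Of 6 preadipocyte or fibroblast markers, Dlk1 and Col1a1 fell with oxLDL by 0.69 and 0.57 (adjusted p = 0.0369 and 0.0481, edgeR), but 1 rose and 1 fell with scaling by library size, and none was called with the trend removed. Among these 6, 1 rose and 1 fell on adding pNaKtide to oxLDL (1 and 3 with scaling by library size). None of 5 macrophage markers tested was called in any of the 10 comparisons, but with scaling by library size 1 fell on adding pNaKtide to oxLDL, and 1 was lower with oxLDL + pNaKtide than in Control, the latter also with the trend removed. Of 2 endothelial markers tested, Pecam1 and Lyve1 with 79 and 17 counts in all, 1 was lower with oxLDL + pNaKtide than with oxLDL. The summed level of the list was at most 0.533 CPM in both groups, and the call was lost with the trend removed. The part of the marker genes in the receptor changes was not tested.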

How the data were processed

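RNA of 3T3-L1 cells (30 libraries, 6 groups of 5) was prepared with a stranded mRNA kit and sequenced. By the submitters' processing notes, the authors trimmed reads with Trimmomatic 0.38, aligned them with HISAT2 2.1.0 and tested with DESeq2 1.20.0, and the methods name GenomicAlignments for counting. The deposited values are raw read counts per gene, and the deposited FPKM values, fragments scaled by transcript length and library total, were used as the authors gave them for levels between genes only. Coordinates are GRCm38 (GENCODE M21), and for the counting neither annotation release nor strand setting is given in the sources used here.

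Genes with more than 14 counts over all libraries were tested in 1 fit of 6 groups with edgeR 4.0.16 (robust quasi-likelihood, TMM, BH adjustment over all genes, threshold 0.1, two-sided) in R 4.3.3. Intervals are log2 value ± 1.96 SE. GC content and length trends were fitted per library with mgcv 1.9.3. Depth limits precision for Stab1, Msr1 and Cd68, and the limit for a count of 0 is 3 counts. The fits were also run on simulated counts, with an outcome that is not reported here.

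The members and lists were chosen with earlier results of these data known. Deposited normalized counts were not used, since they are the raw counts over 1 constant per library. Named were all 9 receptors, the 3 genes of each list with the lowest adjusted p in a direction, and the 3 genes with the highest Pearson r to each receptor. Some listed genes that this rule names are counted but not reported by name here. Marker genes were named after their values were seen. Alternatives were RLE scaling, library size only, DESeq2 1.42.0, limma 3.58.1 on log2(FPKM + 1), other count filters, an adjusted p of 0.05, the replicate number as a block, the compared groups alone, trend removal and leaving out libraries.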

Additional observations from a re-analysis of the deposited data

Results flagged for a closer look

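Among 48 groups of 5 libraries checked for a library far from the others (gap over range, Dixon's 95% critical value), 5 groups were flagged, where chance would flag about 5% of the 48. The checks share libraries, so that they are not independent. Scarb1 was highest in IS replicate 4, at 355 CPM beside 258 to 270.2 CPM in the other 4. Vldlr was lowest in the same library, at 114 CPM beside 156 to 169 CPM. Olr1 was highest in Control replicate 1, at 127 CPM beside 70.6 to 83.2 CPM. Vldlr was lowest in oxLDL + pNaKtide replicate 4, at 79.6 CPM beside 111 to 115 CPM, and highest in pNaKtide replicate 3, at 137 CPM beside 107 to 115 CPM. These libraries also scored apart from most of their group on the first principal component.

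The pNaKtide change with oxLDL differed from that without a stimulus by -0.73 for Cd36, 0.49 for Scarb1 and -0.35 for Vldlr (log2, edgeR's interaction test). It differed from the change with IS by -0.65 for Cd36, 0.43 for Scarb1 and -0.56 for Vldlr. With the GC content and length trend removed, the values for Cd36 were -0.01 and 0.08 and those for Vldlr 0.19 and 0.00, none of them called, whereas Scarb1 was called at 0.56 and 0.55.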

How the results depend on the processing

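Of 8 receptors tested, the number called moved as follows. With oxLDL against Control, 5 were called with library size only and 4 by DESeq2 (35.9% and 38% of all genes), in place of 3, Vldlr being called in 9 of 12 alternatives. With IS against Control, 0 were called at an adjusted p of 0.05 (0.646% of all genes) and 0 with the compared groups alone (0%), in place of 2. With oxLDL + pNaKtide against oxLDL, 3 were called with the GC content and length trend removed (36.8% of all genes), in place of 5, and against Control 0 with the compared groups alone (0.0546%), in place of 1. With IS + pNaKtide against Control, where edgeR called 0, 2 were called by DESeq2, 2 with the compared groups alone, 2 with the trend removed, 2 without Control replicate 1 and IS replicate 4, and 1 with over 14 counts required in every library, beside 7.38%, 5.72%, 2.87%, 32.4% and 2.7% of all genes in that order, against 0.358%. For pNaKtide with oxLDL against pNaKtide with IS, 1 was called with the trend removed (18.1% of all genes), in place of 3. Leaving out 1 library at a time gave 2 to 4 calls with oxLDL, 0 to 3 with IS, 3 to 5 with oxLDL + pNaKtide against oxLDL, 0 to 1 against Control, 0 to 2 with IS + pNaKtide against Control, 2 to 4 for the interaction and 2 to 3 for the difference from IS. The shares of all genes called then ran, in that order, from 24.7% to 45.9%, 0.0745% to 34.5%, 41.4% to 48.7%, 2.51% to 6.46%, 0.00993% to 26.7%, 10.5% to 37.3% and 18.8% to 32.7%.

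With the trend removed the sign turned for Cd36 (-0.08), Scarb2 (-0.16), Olr1 (-0.03), Cd68 (0.11) and Vldlr (-0.23) with oxLDL and Scarb2 (-0.10), Cd68 (0.04) and Vldlr (-0.15) with IS. It also turned for Olr1 (0.03) and Cd68 (-0.01) with pNaKtide alone and Cd36 (0.06), Scarb2 (0.22), Olr1 (0.19), Cd68 (-0.11) and Vldlr (0.04) on adding pNaKtide to oxLDL. Also turned were Vldlr (0.04) on adding pNaKtide to IS and Scarb2 (0.06) and Olr1 (0.17) with oxLDL + pNaKtide against Control. The same held for Cd36 (-0.02), Scarb2 (-0.08) and Vldlr (-0.11) with IS + pNaKtide against Control and Cd36 (0.08), Scarb2 (0.06), Cd68 (-0.07) and Vldlr (0.08) with IS against oxLDL. Also turned were Scarb2 (0.26), Olr1 (0.17), Cd68 (-0.10) and Vldlr (0.19) in the interaction and Cd36 (0.08), Scarb2 (0.21), Olr1 (0.32), Cd68 (-0.25) and Lrp1 (-0.05) in the difference from IS. Of these, Vldlr with oxLDL and Scarb2 with oxLDL, on adding pNaKtide to oxLDL and in the interaction were called with the turned sign. The cause was not tested.

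Without Control replicate 1 and IS replicate 4 the sign turned for Lrp1 (0.04) with oxLDL, Olr1 (0.21) with IS and Scarb1 (-0.06), Olr1 (0.11) and Cd68 (-0.06) with pNaKtide alone. A turned sign was also found for Scarb2 (-0.01) and Stab1 (-0.09) on adding pNaKtide to IS, Scarb1 (-0.06), Olr1 (0.16), Cd68 (-0.04) and Stab1 (0.02) with oxLDL + pNaKtide against Control and Cd68 (-0.07) with IS + pNaKtide against Control. It also turned for Cd36 (0.03), Scarb1 (-0.03), Scarb2 (0.01), Cd68 (-0.04) and Vldlr (0.02) with IS against oxLDL, Lrp1 (-0.03) and Stab1 (-0.22) in the interaction and Cd68 (-0.01) in the difference from IS. With library size only it turned for Lrp1 (0.05) with oxLDL, Olr1 (0.06) with IS and Scarb2 (-0.03) on adding pNaKtide to IS. The same held for Scarb1 (-0.06) and Cd68 (-0.01) with oxLDL + pNaKtide against Control, Cd68 (-0.02) and Lrp1 (-0.12) in the interaction and Cd68 (-0.14) and Lrp1 (-0.15) in the difference from IS. With RLE scaling and with limma on FPKM it turned for Olr1 with oxLDL + pNaKtide against Control (0.01 in both). Leaving out 1 library at a time turned it for Lrp1 (-0.16 to 0.04) with oxLDL, Olr1 (-0.12 to 0.13) and Stab1 (-0.23 to 0.59) with IS and Scarb1 (-0.06 to 0.09), Olr1 (-0.13 to 0.11) and Cd68 (-0.13 to 0.15) with pNaKtide alone. Likewise turned were Scarb2 (-0.01 to 0.02), Stab1 (-0.31 to 0.48) and Vldlr (-0.12 to 0.01) on adding pNaKtide to IS, Scarb1 (-0.06 to 0.10), Olr1 (-0.09 to 0.16), Cd68 (-0.04 to 0.17) and Stab1 (-0.73 to 0.02) with oxLDL + pNaKtide against Control and Cd68 (-0.07 to 0.12) and Stab1 (-0.16 to 0.69) with IS + pNaKtide against Control. The same held for Cd36 (-0.15 to 0.03), Scarb1 (-0.03 to 0.10), Scarb2 (-0.02 to 0.01), Cd68 (-0.07 to 0.12), Stab1 (-0.63 to 0.03) and Vldlr (-0.10 to 0.02) with IS against oxLDL, Lrp1 (-0.11 to 0.24) and Stab1 (-0.21 to 0.77) in the interaction and Cd68 (-0.04 to 0.15) and Lrp1 (-0.12 to 0.19) in the difference from IS. None of these was called with or without the library.

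The replicate number as a block gave 4 calls with oxLDL, 5 on adding pNaKtide to it, 2 with IS and 2 with IS + pNaKtide against Control, beside 38.8%, 49.6%, 17% and 6.64% of all genes. Deviations of same-numbered libraries correlated between -0.6 and 0.69, and in no comparison was every pair over 0.1. For replicate 4 the value was 0.67 between IS and Control, 0.64 between IS and oxLDL and 0.6 between oxLDL + pNaKtide and oxLDL. It was -0.27 between IS + pNaKtide and IS and -0.02 between pNaKtide and Control. Whether libraries of the same number share a culture or a batch was not tested. Library size only moved the median log2 change of all genes from 0.04 to 0.17 with oxLDL and from -0.09 to -0.30 on adding pNaKtide. Depth limits what can be seen of Stab1, Msr1 and Cd68.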
